A study of Mus musculus with 2 samples.

Results

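Shared wide footprints are stretches of 20 bp or more that the authors' footprint caller marked as protected from DNase I in both libraries of mouse gastrocnemius, away from promoters. They were chosen by measured values, namely the widths and positions of the deposited footprints. A replicate 2 footprint was kept when it was 20 bp or wider, lay more than 1 kb from every transcription start site (TSS) of a protein-coding gene in GENCODE M21, and had at least 50% of its length covered by a replicate 1 footprint that was also 20 bp or wider. Of the 115528 footprints of replicate 2, 9646 were that wide, 4654 of these were distal, and 4283 met the whole rule. The 371 distal wide footprints that failed it did so because replicate 1 had no such footprint there.

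DNase-seq was made on gastrocnemius, a calf muscle of the hindlimb, of female B6CASTF1/J mice aged 10 days. These mice are F1 hybrids of the C57BL/6J and CAST/EiJ strains, and no mutation, transgene or treatment is named. There was 1 group of 2 libraries, labelled biological replicates 1 and 2. The labels give both the same donor record and a note of 3 females, so the animals behind each library cannot be told apart, and the spread between the libraries may be in part technical. The tissue is whole muscle, which holds muscle fibres beside fibroblasts, vessels, nerve and blood cells.

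The lists differed in length. Replicate 1 gave 468215 footprints and 114758 peaks in its stricter peak list, and replicate 2 gave 115528 footprints and 26804 peaks. Median footprint width over the whole lists was 11 and 9 bp. Read totals are not used here. Most wide distal footprints of replicate 1, 62458 of 74128, had no replicate 2 footprint at the same place.

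A footprint is a short dip in DNase I cutting inside open chromatin, left where a bound protein shields the DNA. Most transcription factors touch a few bases and leave narrow footprints. CTCF, a protein with a row of zinc fingers, contacts a much longer site: its central fingers read a core motif, and its outer fingers can read a further module upstream of that core. CTCF holds cohesin in place at the feet of chromatin loops and acts as an insulator between domains. Nuclear factor I (NFI) proteins bind a palindrome as dimers. At tRNA genes, TFIIIC binds boxes inside the gene and TFIIIB binds just upstream of it to recruit RNA polymerase III.

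The first sequences show the 2 footprint lengths found on CTCF sites, in the reference letters of GRCm38.p6 from RefSeq, read in the direction of the core with 5 bases on each side of the footprint. Capitals mark the exact CTCF core. In the first 3 the footprint reached far upstream of the core and in the other 3 it ended close to it. They are among the members of each kind with the tallest peaks.
Aanat intron (chr11:116592598-116592664, minus strand): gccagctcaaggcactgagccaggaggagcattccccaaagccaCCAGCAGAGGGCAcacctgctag
Camta1 intron (chr4:151141705-151141761, minus strand): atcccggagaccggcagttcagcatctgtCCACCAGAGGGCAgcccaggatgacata
Cd83 (chr13:43864742-43864798, plus strand): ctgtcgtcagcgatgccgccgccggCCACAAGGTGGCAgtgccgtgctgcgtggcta
Ppp1r1b (chr11:98342774-98342817, plus strand): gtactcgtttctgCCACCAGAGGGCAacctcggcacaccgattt
Clvs1 (chr4:9135959-9135997, plus strand): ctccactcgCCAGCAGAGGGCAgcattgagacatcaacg
Ckb (chr12:111668520-111668556, plus strand): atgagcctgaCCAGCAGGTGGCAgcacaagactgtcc
Each name is that of the gene with the nearest protein-coding TSS, and sites without "intron" lie between genes. The Camta1 footprint was 47 bp wide in replicate 2 and 48 bp in replicate 1, in peaks of height 6.88 and 14.8, and the Cd83 footprint had the same widths in peaks of 3.71 and 20.4. The Clvs1 footprint was 29 and 33 bp wide, in peaks of 3.15 and 13.04, and the Ckb footprint 27 and 29 bp, in peaks of 3.38 and 10.6. Peak height is the signal the authors gave each peak, taken as normalized to read depth, and of these 4 footprints those with the short upstream edge were the narrower in both libraries.

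The next set shows members that hold an NFI-like palindrome, with its 15 bases in capitals. All 4 lie between genes.
Irf2bpl (chr12:86894485-86894518, plus strand): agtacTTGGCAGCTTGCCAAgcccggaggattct
Glyctk (chr9:106159903-106159936, plus strand): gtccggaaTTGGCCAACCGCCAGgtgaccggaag
Irf2bp2 (chr8:126666632-126666666, plus strand): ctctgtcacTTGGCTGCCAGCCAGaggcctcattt
Gm266 (chr12:111505134-111505164, plus strand): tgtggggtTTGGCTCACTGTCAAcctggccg
The Irf2bpl site matched all 10 fixed letters of the palindrome and the others missed 1. These footprints were narrower than those of the long CTCF sites, at 24 bp for Irf2bpl and 25 bp for Irf2bp2 in replicate 2 and 30 and 28 bp in replicate 1. Their peak heights were 3.85 and 3.73 in replicate 2 and 19.5 and 26.5 in replicate 1.

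Members at other kinds of sequence are shown next because such members make up most of the 3 densest stretches. The first 3 lie in the noncoding gene Firre on the X chromosome, with the nearest match to the CTCF core in capitals. The other 3 lie in tRNA genes under their RefSeq names, with the B box letters GGTTCGA in capitals.
Firre (chrX:50566533-50566567, minus strand): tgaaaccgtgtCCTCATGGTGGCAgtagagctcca
Firre (chrX:50605166-50605202, minus strand): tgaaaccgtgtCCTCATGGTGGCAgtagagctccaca
Firre (chrX:50617152-50617189, minus strand): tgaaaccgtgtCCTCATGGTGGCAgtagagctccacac
n-TNgtt14 (chr5:149229002-149229038, minus strand): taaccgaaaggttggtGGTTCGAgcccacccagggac
n-TTagt9 (chr7:35234763-35234808, minus strand): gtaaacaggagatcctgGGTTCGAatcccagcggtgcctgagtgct
n-TEctc10 (chr11:58302173-58302218, minus strand): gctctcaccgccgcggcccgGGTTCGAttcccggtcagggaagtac
The tRNA footprint at n-TTagt9 was 36 bp wide in both libraries, in peaks of height 5.09 in replicate 2 and 14.5 in replicate 1.

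Widths fell into more than one group. Replicate 2 widths ran from the limit of 20 bp to 72 bp, with a median of 28 bp (95% interval 28 to 29) and quartiles of 24 and 34. Counts per width were highest at 29 bp (280 members), fell to 51 members at 38 bp and came to 84 members at 45 bp. The matched replicate 1 footprints were wider, with a median of 34 bp (33 to 34) and quartiles of 30 and 44, and they showed the same pattern more sharply, with 332 at 32 bp, 55 at 37 bp and 239 at 45 bp. The replicate 1 footprint was the wider of the pair for 78.1% of members (76.9 to 79.3), and by a median of 4 bp. Widths in the libraries had a Spearman correlation of 0.449 over 4283 members, as a description only, since the rule demanded 20 bp in both.

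**Figure D1:**
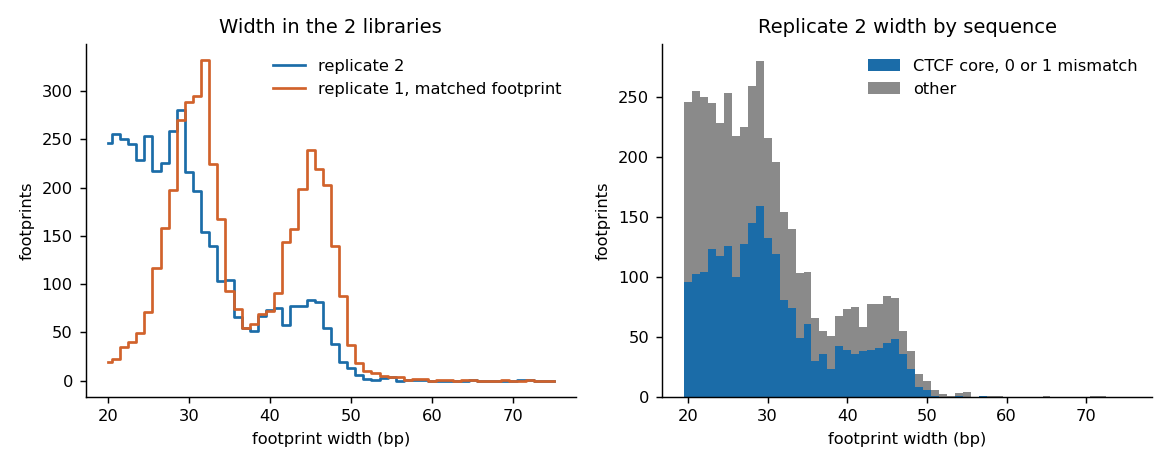
Left, number of footprints at each width in bp for the shared wide footprints in replicate 2 and for the replicate 1 footprints that match them; right, the replicate 2 widths split by whether the central 50 bp hold a CTCF core with 0 or 1 mismatch. Both libraries have a group near 30 bp and another near 45 bp, and the second group is larger in replicate 1.

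The rule demanded that the footprints overlap, so the closeness of their edges is given as a description. The start differed by 1 bp or less for 37.4% of members and by 3 bp or less for 64.1%, and the end for 35.8% and 61.9%. Both edges were identical for 124 members. For 63.9% (62.5 to 65.3) the replicate 1 footprint held the whole member and was wider, and for 8.57% the member held the replicate 1 footprint. At the width limit, 501 members were 20 or 21 bp wide, and 584 distal footprints of 18 or 19 bp would have met the other demands. A CTCF core with 1 mismatch at most was found in 39.5% and 37.3% of these, and the median replicate 2 peak height was 1.53 and 1.47.

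CTCF-like sequence was the most common content of the members. An exact match to the 13-base core, which has 9 fixed letters, was present in the central 50 bp of 818 members (19.1%, Wilson 95% interval 17.9 to 20.3) against 0.0817% of windows of the same length 200 bp to either side. With 1 mismatch allowed the share was 51.6% (50.1 to 53.0) against 1.48% of flanks, and with 2 allowed it was 78.9% (77.7 to 80.1) against 12.46%. Leaving off the last letter of the core raised the exact share to 40.1%, against 0.280% of flanks. A weight matrix made from 9850 core sites in replicate 1 footprints away from the members, with its limit set at the score that 1% of flanking windows pass, marked 71.0% (69.6 to 72.4). All intervals here cover counting error only, and members are not replicates.

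The same core was less frequent in the other groups of footprints. Its share with 1 mismatch at most was 17.1% (16.4 to 17.7) of the 13964 distal footprints under 20 bp that replicate 1 shared, 9.38% (8.46 to 10.4) of the 3550 shared wide footprints within 1 kb of a TSS, and 12.7% (12.4 to 12.97) of the 62458 wide distal footprints of replicate 1 with no replicate 2 footprint. Among the 371 wide distal footprints of replicate 2 that replicate 1 did not match it was 6.74% (4.61 to 9.76). No test was made of these differences, because the sites share libraries and the groups were chosen by footprint calls.

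The length of a CTCF footprint followed where its upstream edge lay. Among the 2208 members with a core of 1 mismatch at most, the core lay wholly inside the footprint in 91.4%. The edge before the core was most often 5 bases from it in replicate 2 (426 members) and 6 bases from it in replicate 1 (398 members), with a second maximum at 22 bases in replicate 2 (103 members) and 23 bases in replicate 1 (233 members). The edge after the core had its maximum at 11 bases in both libraries. An edge 18 to 26 bases before the core, called long here, was found in 457 members (20.7%) by replicate 2 and in 39.9% by replicate 1. An edge 2 to 8 bases before it, called short, was found in 56.8% and 51.3%.

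**Figure D2:**
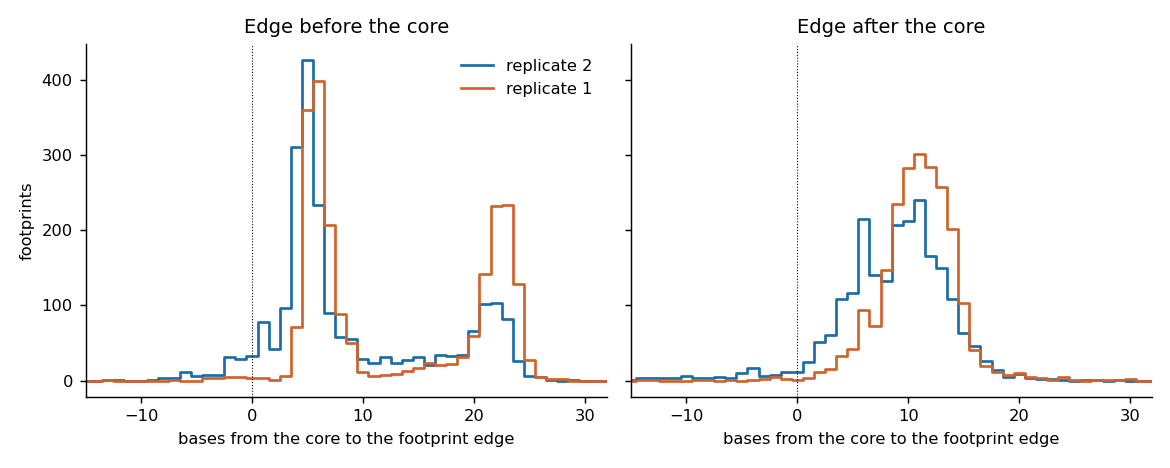
Number of members with a CTCF core of 1 mismatch at most, by the number of bases from the core to the footprint edge before it (left) and after it (right), in replicate 2 and in the matched replicate 1 footprint; negative values are edges inside the core. The edge before the core has maxima at 5 and 22 bases in replicate 2 and at 6 and 23 in replicate 1, and the edge after it a maximum at 11 in both.

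Most members that were long in replicate 2 were long in replicate 1, but not the reverse. Of the 457 members long in replicate 2, 93.2% (90.5 to 95.2) were long in replicate 1 and 4.38% were short there. These 426 members were fewer than the rest of the 882 that were long in replicate 1. Of the 1255 short in replicate 2, 72.9% (70.4 to 75.3) were short in replicate 1 and 20.9% were long there. Of core-bearing members of 40 bp or wider, 90.1% (86.5 to 92.7) were long, against 7.10% (6.01 to 8.36) of narrower ones. Median width was 43 bp for long and 28 bp for short members. The core lay on the forward strand in 49.6% (47.5 to 51.7).

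Long members carried a second block of preferred letters upstream, which can be seen in the Camta1 sequence above. The edge at Aanat lay farther out than the long window. Aligned on the core, positions 15 to 8 bases before it held 4.78 bits of information in long members and 0.596 bits in short ones, and position 16 before it alone held 1.15 and 0.134 bits. The core held 17.7 and 18.7 bits, which the choice of sites by its 9 fixed letters set in part. Downstream, positions 1 to 8 after the core held 1.32 and 1.85 bits. Information is 0 bits where all letters are equally frequent and 2 bits where 1 letter is fixed. The letters GCAGTTCC, read from this profile after it was seen, were present with 1 mismatch at most in 34.4% (30.1 to 38.8) of long and 9.40% (7.91 to 11.1) of short members, against 4.44% of flanking windows. This count uses the sites the letters were read from, so it only describes them. The 50 bp searched were centred on the footprint. In short members they reached less far upstream of the core and could leave these letters out. The shares of long and short members are thus not over like positions, whereas the bits above were aligned on the core. The same letters stood in 15.4% (13.2 to 17.8) of 925 members under the matrix limit. These lay at no tRNA gene and held no NFI palindrome of 2 mismatches at most. That share was close to the 14.7% (13.7 to 15.8) of all 4283 members. In shared distal footprints under 20 bp it was 8.42%.

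**Figure D3:**
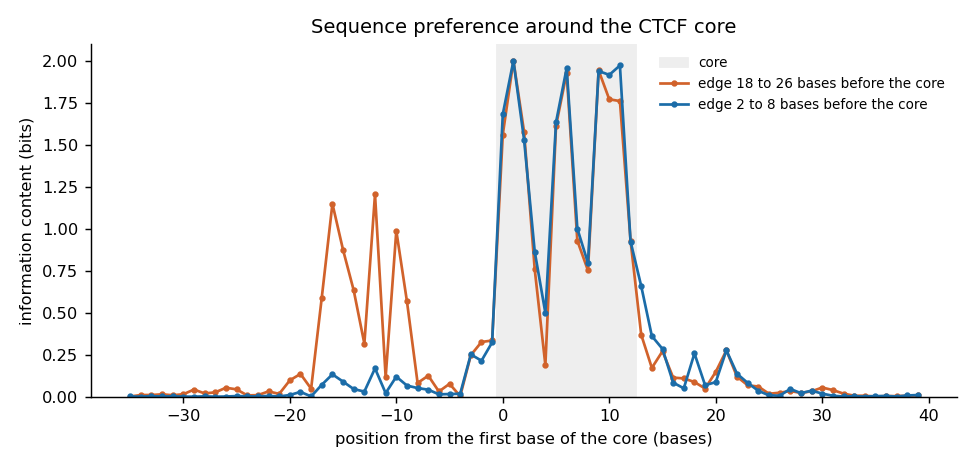
Information content in bits at each position from the first base of the CTCF core, for the 457 members with the replicate 2 edge 18 to 26 bases before the core and the 1255 with the edge 2 to 8 bases before it; the grey band is the core. Both groups share the peaks inside the core, and the long group alone rises above 0.5 bits upstream of it, with its highest upstream values 16 and 12 bases before the core.

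Long members also had taller peaks in replicate 2, with a median height of 2.15 (quartiles 1.63 and 2.84) against 1.66 (1.35 and 2.12) for short ones. In replicate 1 the medians were 3.63 (2.51 and 5.32) and 3.46 (2.39 and 4.89), closer together than the quartiles within each group. Whether peak height, and with it the cuts available to the caller, set which edge was called was not tested.

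Members without a CTCF-like site held other sequences. Of the 902 members whose best core match missed more than 2 letters, 184 (20.4%, 17.9 to 23.2) had an NFI palindrome with 2 mismatches at most, against 1.68% of members with a CTCF core of 1 mismatch at most. Over all members the share was 6.47% (5.77 to 7.24), against 1.25% of flanks. The share was 8.14% in shared distal footprints under 20 bp and 7.41% in shared wide footprints near a TSS. It was 7.28% in the wide distal footprints of replicate 2 that replicate 1 did not match. Among the wide distal footprints of replicate 1 that replicate 2 lacked, it was 24.9% (24.6 to 25.2). The GC box GGGCGG bound by SP and KLF factors was present in 4.51% of members, 8.98% of those 902 and 32.6% of the shared wide footprints near a TSS. The E-box CAGGTG was present in 12.1% of members and 3.67% of flanks, but in only 3.99% of those 902. Of the 518 members with it, 340 also had a CTCF core of 1 mismatch at most. The core can itself spell CAGGTG, as it does in the printed Ckb site, and how many of the 340 did so was not counted.

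Motifs of muscle regulators were little more frequent in members than in flanks, or rarer. The E-box CAGCTG, the preferred site of MyoD, was present in 3.25% (2.76 to 3.82) of members and 2.63% of flanks, against 5.59% of shared distal footprints under 20 bp and 6.53% of the wide ones found in replicate 1 only. The MEF2 site was present in 2 members (0.0467%) against 0.549% of flanks, and the SRF CArG box in 4 members (0.0934%) against 0.163%. TEAD letters, CATTCC, were at 2.76% and 2.61%, and the MEF3 site TCAGGTT at 0.350% and 0.572%. AP-1 letters TGANTCA were at 0.724% and 1.26%, GATA letters AGATAA at 0.537% and 2.14%, and homeodomain letters TAATTA at 0.0934% and 1.05%. The MEF2, GATA and homeodomain shares were below those of the flanks in every other group of footprints as well. They were 0.186%, 0.730% and 0.322% in shared distal footprints under 20 bp. Members were richer in GC than their flanks, 59.2% against 48.3%, and AT-rich motifs were rarer in them.

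The median distance to a protein-coding TSS, which the rule held above 1 kb, was 12958 bp, and 42.1% were within 10 kb. By position, 58.8% (57.3 to 60.2) lay between protein-coding genes, 34.8% (33.4 to 36.3) in introns and 6.42% (5.72 to 7.19) in exons. These shares were close to the 59.5%, 33.5% and 6.91% of shared distal footprints under 20 bp. For the wide distal footprints found in replicate 1 only they were 49.3%, 44.6% and 6.13%. A CpG was present in the central 50 bp of 81.6%. Repeats masked in the assembly covered at least 50% of the footprint in 7.82% of members, close to the 8.03% of shared distal footprints under 20 bp. The share was 19.9% of members with an exact CTCF core and 4.89% of those whose core missed 1 letter.

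Most members sat in peaks taller than the median distal peak. The tallest stricter-list peak that overlapped a member was taken. Such a peak was present in replicate 1 for 98.3% of members, in replicate 2 for 84.5% (83.4 to 85.5), and in both for 83.2% (82.1 to 84.3). The median height at members was 3.57 (quartiles 2.38 and 5.45) in replicate 1 and 1.83 (1.42 and 2.54) in replicate 2. Tall peaks were not particular to members. The medians were 3.02 and 1.65 at shared distal footprints under 20 bp, and 12.3 and 2.86 at shared wide footprints near a TSS. Distal peaks without a member had medians of 0.973 and 0.986. Among distal peaks without a member that overlapped a peak of the other library, the medians were 2.16 and 1.14. The footprints and the peaks come from the same reads, so these heights describe the members and do not support their choice.

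The share of distal peaks that held a member rose with height in replicate 2 at every step, when the peaks were cut by height into 10 groups of equal size, from 0% of the lowest group to 81.0% of the tallest. In replicate 1 it stayed under 1% in the lower 5 groups and reached 21.2% in the tallest. Of the 1000 tallest distal peaks, 806 in replicate 2 and 241 in replicate 1 held a member. Replicate 2 had 9489 distal peaks and replicate 1 had 84881. The 1000 tallest are thus a smaller part of the replicate 1 list, and each of its 10 groups holds more peaks. The shares of the 2 libraries are therefore not on a like footing.

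**Figure D4:**
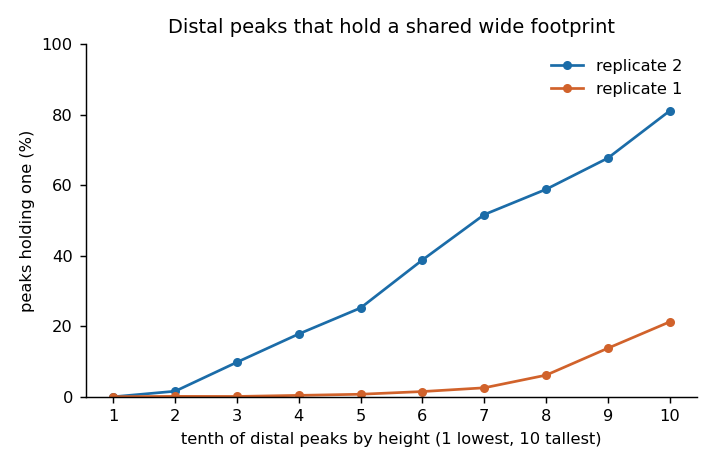
Share in percent of distal stricter-list peaks that hold a shared wide footprint, in 10 equal groups by peak height within each library, from 1 (lowest) to 10 (tallest). Replicate 2 reaches 81.0% in its tallest group and replicate 1 reaches 21.2%.

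Heights in the libraries went together only in part. Over the 3564 members in a peak of both, which share those libraries and are not independent replicates, the Spearman correlation was 0.565. The replicate 2 height was the larger for 8.47% of them, and the median log2 ratio of replicate 2 to replicate 1 was -0.996, on a scale that may differ between the libraries. Wider members had taller peaks in replicate 2 (Spearman 0.337, 3618 members) and less so in replicate 1 (0.109, 4211 members). Members of 20 to 23 bp had median heights of 3.25 in replicate 1 and 1.57 in replicate 2, and those of 44 to 47 bp had 4.21 and 2.63. The lowest deposited FDR within the member was under 0.001 for 99.7% in replicate 1 and 87.9% in replicate 2.

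Members with no CTCF-like core had the taller peaks. Median heights were 3.36 in replicate 1 and 1.67 in replicate 2 for an exact core, 3.41 and 1.76 for 1 mismatch, 3.53 and 1.87 for 2, and 4.58 and 2.26 for 3 or more. The quartiles of neighbouring classes overlapped throughout. Median widths were 29, 29, 28 and 26 bp in that order. Members with an NFI palindrome and more than 2 CTCF mismatches had a median width of 24 bp and heights of 4.59 and 1.94.

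The tallest members by the sum of height ranks came from few places. Of the 10, 5 lay in 2 peaks on chromosome 8, near 20122176 and 20424806, with heights of 30.96 and 29.3 in replicate 1 and 6.70 and 12.9 in replicate 2. The central 50 bp of 3 of these 5 stood, letter for letter, at 3 or 4 places on that chromosome, and reads from such copies cannot be told apart. A CTCF core with 1 mismatch, in capitals, lay on the plus strand at one peak and on the minus strand at the other.
Chromosome 8 first peak (chr8:20122171-20122222, plus strand): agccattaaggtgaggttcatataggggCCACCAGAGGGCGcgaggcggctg
Chromosome 8 second peak (chr8:20424863-20424894, minus strand): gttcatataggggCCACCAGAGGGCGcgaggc
Another 4 of the 10 lay in 2 peaks on chromosome 5, with heights of 24.4 and 19.6 in replicate 1 and 6.73 and 8.75 in replicate 2. The last, 21453 bp from a TSS of Igf2bp3, had a height of 17.9 in replicate 1 and 37.0 in replicate 2, the only one of the 10 that was taller in replicate 2.

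Among the widest members were some of 71, 65, 59, 58 and 57 bp in replicate 2. Those of 71, 65, 59 and 58 bp had heights of 5.76, 5.67, 3.02 and 10.3 in replicate 2. In replicate 1 their heights were lower, at 1.08, 3.44, 2.80 and 5.05. Only exact copies in the assembly were searched for, so whether reads from near or unassembled copies made these footprints was not tested. The member of 57 bp, in an intron of Aanat, was the widest with an exact CTCF core and is printed above. It was 61 bp wide in replicate 1, with heights of 7.13 in replicate 2 and 19.7 in replicate 1.

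tRNA genes carried 85 members (1.98%, 1.61 to 2.45) within 100 bp, at 64 of the 403 tRNA genes of the RefSeq annotation. They were looked for after the sequences had been seen. Of these members 83 lay under the CTCF matrix limit, 6.69% (5.43 to 8.22) of all members that did. Their peaks had a median height of 5.86 (quartiles 4.38 and 8.002) in replicate 1 and 3.48 (2.78 and 4.61) in replicate 2. Centres fell in separate groups, with 44 members 15 to 39.5 bases before the gene start, 31 between 47.5 and 74.5 bases into the gene, and 10 elsewhere. The B box letters GGTTCGA stood in 29 of those 31 and in 0.222% of flanking windows. The shares at tRNA genes were 1.81% of shared distal footprints under 20 bp and 0.146% of the wide ones found in replicate 1 only.

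Neighbouring members were either close together or far apart. The median distance from centre to centre was 172170 bp (160789 to 181016), and 37.3% of the 4262 distances were between 100 and 500 kb and 24.8% were longer. Another 239 were under 100 bp, while only 11 lay between 100 and 200 bp. Of the close pairs, 146 (61.1%) were 60 to 79 bp apart, with a median of 68 bp and a median of 36 bp between their facing edges. Close pairs involved 457 members, namely 4.93% (4.22 to 5.76) of those above the CTCF matrix limit, 15.02% of those with an NFI palindrome, 45.9% (35.7 to 56.4) of those at tRNA genes and 25.2% (22.5 to 28.1) of the rest. Pairs of a CTCF-like member and one of the rest made up 43.9% of close pairs and 27.8% of farther ones, and pairs of 2 CTCF-like members 7.11% and 55.1%.

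**Figure D5:**
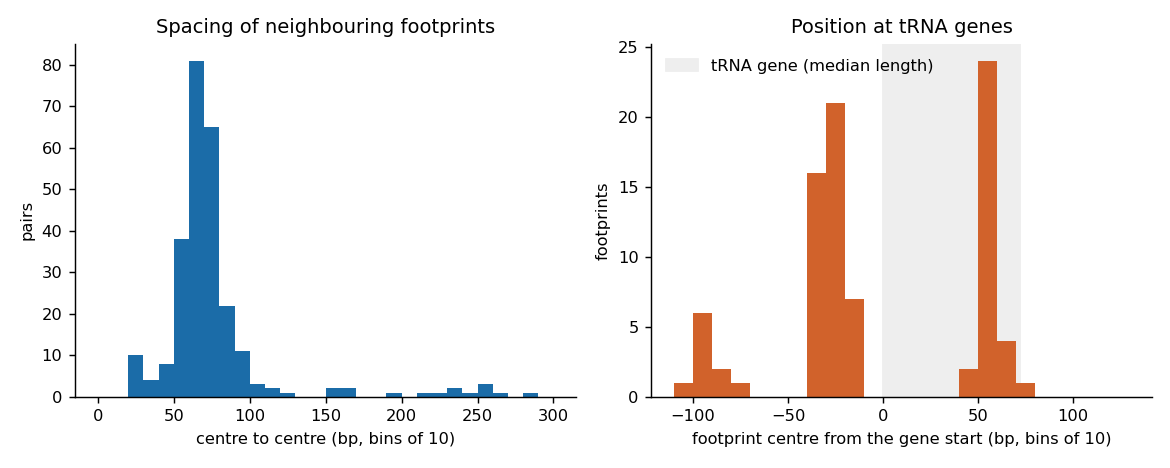
Left, number of neighbouring pairs of shared wide footprints by centre-to-centre distance in bins of 10 bp, up to 300 bp; right, centres of the members within 100 bp of a tRNA gene, in bp from the gene start in the direction of transcription, with the median gene length of 72 bp in grey. Close pairs peak at 60 to 79 bp, and tRNA members fall before the start and near the end of the gene.

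Other footprints, whose widths were not examined, often lay near the CTCF members. Another footprint of replicate 2 lay within 100 bp of the member on at least 1 side for 75.9% (74.1 to 77.6) of members with a core of 1 mismatch at most, and another footprint of replicate 1 for 99.3%. In replicate 1 the median gap to the next footprint was 33 bp before the core and 35 bp after it. In replicate 2 it was 32 and 42 bp. Gaps under 5 bp were found before the core for 331 members in replicate 2 and 360 in replicate 1, and after it for 82 and 15.

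Facing CTCF cores are known to anchor loops. Among the 1219 neighbouring pairs in which both members had a core of 1 mismatch at most, 49.5% had the cores on the same strand, 24.2% facing each other and 26.3% facing away. At 1 to 50 kb, 34.6% (28.8 to 40.9) of 237 pairs faced away and 14.8% (10.8 to 19.8) faced each other. At 50 kb or more the shares were 24.4% (21.8 to 27.2) and 26.8% (24.1 to 29.7). Within peaks, 6.36% of the 3380 replicate 2 peaks with a member held more than 1, and none held more than 3.

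Members per Mb were highest on chromosome 11, at 3.17, and apart from the Y chromosome, with 1 member, lowest on the X chromosome, at 0.409. As a share of the distal replicate 2 footprints of the chromosome, members made up 11.7% on chromosome 11, 12.6% on chromosome 19 and 7.94% on X. Of the 70 members on X, 14 lay in Firre, a noncoding gene known to bind CTCF and to take part in X chromosome structure, at 50555744 to 50635321 on the minus strand. None of the 14 had a core of 1 mismatch or fewer and none passed the matrix limit, but 7 had a core that missed 2 letters. The best core match lay on the strand of the gene in 11 of them. As the printed sequences show, 3 of the members carried the same 33 bases around it. The densest 50 kb stretch of the genome, with 12 members, lay within this gene, with heights from 1.74 to 4.92 in replicate 1 and 1.49 to 4.17 in replicate 2. The gene held 77 replicate 2 footprints of any width. The central 50 bp of 4 of the 14 members stood at 2 or 3 places on the X chromosome, and reads from such copies cannot be told apart.

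The next densest stretches held 9 members around Trim27 on chromosome 13 and 8 around Tmem107, Vamp2 and Per1 on chromosome 11. In each, 5 of them lay at tRNA genes. A stretch with 6 members on chromosome 7 spanned Fosb, an immediate-early transcription factor gene, and 5 members lay around Ptma on chromosome 1, with a median height of 24.7 in replicate 1 and 4.45 in replicate 2.

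Genes of several lists had members within 50 kb of a TSS, where 28.6% of all 21924 protein-coding genes had at least 1. In posterior HOX genes, which set position along the limb and share windows with each other, 12 of 14 had one. Among immediate-early genes it was 11 of 18, with 6 members at Fosb and 3 each at Fos and Btg2, and among circadian genes 9 of 15, with 11 at Per1, the clock repressor beside the tRNA genes of chromosome 11. Macrophage genes had 6 of 9, with 3 members each at Fcgr3, Laptm5 and Spi1. In the muscle lists, 9 of 22 sarcomere genes, with 3 members each at Mybpc2, Myom1 and Tnni1, had one. So did 6 of 15 myogenic regulators, with 6 at Nfix, 6 of 13 genes of excitation-contraction coupling, with 3 at Stac3, and 2 of 7 myosin heavy chains. Metabolic genes of muscle had 6 of 12, neuromuscular junction genes 4 of 12 and satellite cell genes 5 of 11, with 3 members at Notch3. Other cells of the tissue were covered by 4 of 13 fibro-adipogenic and tendon genes, 4 of 12 endothelial and mural genes, 4 of 8 Schwann cell genes and 5 of 10 neuron genes. Housekeeping genes had 7 of 15 and imprinted genes 4 of 13, with 4 at Cdkn1c. Only 1 of 11 genes of CTCF and cohesin had any, which was Ctcf itself with 2. The posterior HOX windows also held 408 distal replicate 2 footprints of any width, counted per gene, and the Per1 window 53. The part of footprint density in these counts was not tested.

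The labelled tissue was checked against its defining genes. Of 15 skeletal muscle markers, 11 had a distal replicate 2 footprint of any width within 50 kb, and Ckm, Ryr1 and Actn3 had 1 member each. Myh1, Myh2, Myh4 and Tnnc2 had no distal replicate 2 footprint. Other cell types of muscle were also represented, with members at Scx for tendon, Pecam1 and Cdh5 for endothelium, Sox10 for Schwann cells and Csf1r for macrophages, and 1 of 3 neuron markers, Rbfox3, had a member.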

How the data were processed

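DNase-seq was made from gastrocnemius of 1 group with 2 libraries. The authors deposited, on mm10 and for each library alone, 2 peak lists, intervals with an FDR and footprints, per the labels that came with the files. The deposited signal per peak, its height, is taken as normalized to read depth because the heights in each library are multiples of a step; no source used here states how the heights were scaled. The deposited FDR is a corrected p-value of at most 0.05, and the deposited footprint score is 0.01 throughout, from the values. Aligner, callers and their settings: not given in the sources used here. Of the peak lists, the stricter is the shorter one. The members, motifs and gene lists were chosen with earlier results of these data known. Footprints were intersected, and 28 consensus motifs were matched on both strands in 50 bp centred on each footprint and in flanks 200 bp to each side, with GRCm38.p6 sequence from RefSeq, which is the C57BL/6J reference and not the CAST/EiJ allele. Of 232 entries in 18 gene lists, 230 were found in GENCODE M21. Named were the 10 members with the best sum of height ranks, the 6 widest, up to 3 genes per list with the most members within 50 kb of a TSS and the 5 densest stretches of 50 kb; of the sequences this rule allowed, only those the results turn on are printed, and some named items are not reported here. Long and short CTCF sites, NFI, Firre and tRNA sequences were chosen after their values were seen. No test between conditions exists and none was run. Shares carry Wilson 95% intervals and medians binomial 95% intervals, for counting error only, since sites are not replicates. Read totals are not used here, and a longer list gives a wide footprint more chances of a match. Overlap and motif code was tested on simulated data. The tools were bedtools 2.31.1, pysam 0.24.0, scipy 1.17.1, numpy 2.4.6, pandas 2.3.3 and matplotlib 3.10.9 under Python 3.11.15.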

Additional observations from a re-analysis of the deposited data

How the results depend on the processing

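Alternatives to the width limit, overlap, TSS distance, peak list, motif match and repeats gave 74 values, of which 46 stayed within the 95% interval of the reported value (for the number of members, within 1.5 times). The number of members was 4654 without replicate 1 and 74128 without replicate 2, and ran from 3007 to 4914 with limits of 25 and 18 bp and under the other settings. With limits of 18 and 25 bp the median width was 27 and 31 bp, the share in a peak of both libraries 80.8% and 87.9%, and the median distance 145876 and 255118 bp. At 25 bp the median replicate 2 height was 1.93. Leaving out a replicate gave median widths of 26 to 28 bp, shares in a peak of both of 13.04% to 79.7%, heights of 1.83 to 2.08 (replicate 1 heights without replicate 2), exact CTCF shares of 5.58% to 17.7% and distances of 6647 to 156898 bp. The longer peak lists gave 96.3% in both and a height of 1.73. TSS distances of 500 bp and 2 kb gave median distances of 155410 and 195004 bp, and TSSs of protein-coding transcripts only 158938 bp. Without masked repeats the distance was 186300 bp and the exact CTCF share 16.6%. That share was 17.8% in 30 bp windows and 51.6% with 1 mismatch, and, added after seeing the data, 78.9% with 2 mismatches, 40.1% without the last letter of the core and 71.0% with the weight matrix. The NFI palindrome, exact in 3 members, stood in 277 with 2 mismatches at most, also added after seeing the data. No paired analysis was possible because there is 1 group. The cause of these shifts was not tested.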

Other observations

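Part of the site of REST, the repressor of neuronal genes, was found among the wide distal footprints of replicate 2 that replicate 1 did not match. The letters TTCAGCACC were present in 17 of those 371 footprints (4.58%) and in 5 of the 4283 shared ones (0.117%). They were chosen after their values were seen. At 10 of the 17 replicate 1 had no footprint, and at the other 7 it had a narrower or less overlapping one. A stricter-list peak covered 6 of them in replicate 1 and 13 in replicate 2. The nearest TSS belonged to 16 genes, at distances from 1120 to 130529 bp. They included Nefh, a neurofilament gene, and Chrm4, a muscarinic receptor gene, but also genes not known for neurons, such as Hsd17b12 of lipid synthesis and Pigk of membrane anchor attachment.

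Another value that stood out was a member on the Y chromosome, at 90744612 to 90744636, although the mice are labelled female. It was 25 bp wide in replicate 2 and 38 bp in replicate 1, with heights of 8.03 and 5.11. The central 50 bp stood at 4 places in the assembly, 1 of them on the X chromosome. The whole lists held 13 footprints on Y in replicate 2 and 61 in replicate 1.

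Members within 1 kb of the start of a gene without a protein product made up 6.84% (6.12 to 7.64) of all. They made up 5.03% of the CTCF-like members, and 11.2% (9.37 to 13.4) of those with no CTCF-like, NFI or tRNA feature. The share was 8.78% of shared distal footprints under 20 bp and 13.8% of shared wide ones near a TSS. It was 11.9% of the wide distal footprints of replicate 2 that replicate 1 did not match. Among wide distal footprints found in replicate 1 only, it was 3.95%. Of the 4283 members, 4 had the same central 50 bp as another member.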
